A study of Mus musculus with 9 samples.

Results

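The genes of insulin-like growth factor 1 (IGF1), of its receptor and of 6 IGF-binding proteins were followed through injury of the mouse femoral artery and its treatment with an inhibitor of focal adhesion kinase (FAK). The 8 genes, Igf1, Igf1r, Igfbp2, Igfbp3, Igfbp4, Igfbp5, Igfbp6 and Igfbp7, were chosen by name, and each was found once in each of the 3 deposited tables, among 16750 genes that could be set on a scale common to all libraries. All mice were C57BL/6, and no genetic change is named in the labels. RNA was taken from the arterial media, where the smooth muscle cells lie, in 9 libraries that form 3 groups of 3, after fat and adventitia had been dissected away and the lumen rinsed with lysis reagent to strip off endothelial and immune cells. The sham group is labelled as sham control, the injured group as day 14 after wire injury, and the inhibitor-treated group as day 14 after wire injury with the FAK inhibitor VS-4718. The treatment text of the labels gives 50 mg/kg of VS-4718 by mouth 2 times a day, or 10 mM citrate as the vehicle, for 2 weeks after injury. There is no group given the inhibitor without injury. Neither the age nor the number of animals per library is in the labels. The p-values therefore cover the spread among these libraries alone, and that spread may be technical.

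IGF1 is a secreted growth factor that growth hormone induces in the liver and that many cells also make locally, among them macrophages, fibroblasts and smooth muscle cells. It acts through IGF1R, a receptor tyrosine kinase that recruits the IRS adaptors and switches on the PI3K-AKT and RAS-ERK pathways, by which it favours survival, growth and migration of smooth muscle cells. In tissue fluid most IGF is held by the IGF-binding proteins, which carry it, keep it from the receptor or store it near cells, and which proteases cut to release it. IGFBP7 binds IGFs only weakly and is usually grouped with the family by its sequence.

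Igfbp2 and Igfbp5 lie tail to tail on chromosome 1, 5457 bases apart, and their transcripts behaved differently, while Igfbp2 and Igfbp3 lie on different chromosomes and moved alike. Igfbp6 was the gene of the 8 that ended below sham under the inhibitor. The 250 bases before the RefSeq start of these 4 genes are therefore shown, from RefSeq on GRCm38.p6, each read 5′ to 3′ on the strand of its gene. The windows are chr1:72824230-72824479 on the plus strand for the first of 2 listed starts of Igfbp2, chr1:72874866-72875115 on the minus strand for Igfbp5, chr11:7213924-7214173 on the minus strand for Igfbp3, and chr15:102143936-102144185 on the plus strand for Igfbp6. Capitals mark letters that match a searched motif on either strand.
Igfbp2: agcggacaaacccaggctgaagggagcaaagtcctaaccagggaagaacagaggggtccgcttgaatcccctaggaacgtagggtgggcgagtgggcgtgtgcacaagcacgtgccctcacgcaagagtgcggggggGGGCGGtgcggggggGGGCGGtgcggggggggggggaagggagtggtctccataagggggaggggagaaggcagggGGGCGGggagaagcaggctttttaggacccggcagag
Igfbp5: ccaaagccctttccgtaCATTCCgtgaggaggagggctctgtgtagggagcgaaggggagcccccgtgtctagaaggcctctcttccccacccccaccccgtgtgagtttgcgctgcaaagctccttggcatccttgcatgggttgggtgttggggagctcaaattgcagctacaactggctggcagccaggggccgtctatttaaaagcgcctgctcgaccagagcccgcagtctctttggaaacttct
Igfbp3: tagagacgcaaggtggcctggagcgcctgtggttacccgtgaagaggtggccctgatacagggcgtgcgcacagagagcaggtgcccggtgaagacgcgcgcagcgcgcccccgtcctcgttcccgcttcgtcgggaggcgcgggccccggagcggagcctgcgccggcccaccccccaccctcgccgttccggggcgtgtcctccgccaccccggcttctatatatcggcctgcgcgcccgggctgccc
Igfbp6: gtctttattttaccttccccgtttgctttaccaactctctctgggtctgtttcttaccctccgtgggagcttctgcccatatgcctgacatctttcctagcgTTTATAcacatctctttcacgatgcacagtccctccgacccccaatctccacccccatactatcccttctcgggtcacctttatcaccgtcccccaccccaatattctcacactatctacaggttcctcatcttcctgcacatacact
The capitals in Igfbp2 are GC boxes (GGGCGG, the core of Sp1 sites), which start 113, 98 and 37 bases before the start. In Igfbp5 they are a TEAD motif (GGAATG, read on the other strand) 233 bases before the start, and in Igfbp6 a TATAAA, also read on the other strand, 148 bases before it.

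All 8 genes had a RefSeq window, and the 7 motifs searched on both strands gave few shared matches. The GC box was found in the windows of Igfbp2, Igfbp7 and Igf1r, and in 32.7% of 32841 mouse promoters of the same length. TATAAA was found for Igfbp4, 28 bases before the start, and Igfbp6, against 12.4% of promoters, and GGAATG for Igfbp5 against 12.6%. The AP-1 motif was searched loosely, as TGANTCA with any middle base, and was found in 6.75% of promoters. For Igf1 (chr10:87860861-87861110, plus strand) the match was TGAATCA, 37 bases before the start. For the second start of Igfbp2 (chr1:72825137-72825386) it was TGAGTCA, 39 bases before. The Igf1 window lies wholly inside annotated exons, and whether these belong to Igf1 or to the antisense gene Igf1os, which spans the window, was not recorded. The second Igfbp2 window lies in part inside an annotated exon of Igfbp2. The letters of these windows are therefore not shown. In the Igfbp5 window shown, the 19 bases nearest the RefSeq start lie in a GENCODE exon of Igfbp5, and the 3 other windows shown overlap no annotated exon. Starts can differ between the annotations. The windows of Igfbp6 and Igf1r end at 102144185 and 67952256, while GENCODE starts these genes at 102144362 and 67952827. Motif distances are from the RefSeq starts. No window held a STAT motif (TTCNNNGAA, 7.02% of promoters), a FoxO motif (GTAAACA, 3.17%) or a CArG box (1.47%). In CG dinucleotides the windows ran from 5 in Igf1, 7 in Igfbp6 and 10 in Igfbp5 to 32 in Igfbp3 and 42 in Igf1r, with a median of 6 over all promoters, so the pair Igfbp2 (14) and Igfbp3 that moved alike differed in this measure.

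The reads recovered from the deposited normalised counts were 14676891 to 21248740 per library, over the genes listed in the deposited tables alone. The 8 genes were covered by 173 reads (Igfbp3 in its lowest library) to 40888 reads (Igfbp7 in its highest) per library. The 8 contractile smooth muscle markers summed to 505380 to 675280 normalised counts in sham, 147980 to 175980 in injured and 591470 to 603790 in inhibitor-treated libraries, so the labelled smooth muscle layer was present in all. Injured replicate 2 stood apart with a summed skeletal muscle marker level of 508080, against at most 58781 elsewhere. Sham replicate 3 had a sum of 28805 on that list, against 4957 and 7295 in the other sham libraries. Inhibitor-treated replicate 2 had a sum of 35673 on it, against 2280 and 8073 in its fellow libraries. Inhibitor-treated replicate 3 stood apart with a hepatocyte marker sum of 37170, against at most 12479 elsewhere. The erythroid marker sum was 42090 to 92544 in the 3 inhibitor-treated libraries and 1182 to 7128 in the 6 others. Levels below are normalised read counts on the common scale, with the standard deviation (SD) over 3 libraries. Fold changes are on the log2(normalised count + 1) scale with their standard error (SE), from limma within each comparison's own table, and a change was called at an adjusted p under 0.05.

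Igf1, the ligand (ENSMUSG00000020053, GRCm38 chromosome 10, 87858265 to 87937042, plus strand), was at 1159, 1204 and 1520 in the sham libraries. In the injured libraries it was at 13085, 7892 and 9817, and in the inhibitor-treated libraries at 1005, 1632 and 1327. Every injured library was thus far above the 6 others, and the sham and inhibitor-treated libraries overlapped. Mean levels were 1294 ± 197 in sham, 10265 ± 2625 in injured and 1321 ± 313 in inhibitor-treated arteries (SD, n = 3 per group). Igf1 rose 7.93 times with injury, or by 2.96 ± 0.19 on the log2 scale (± SE, adjusted p = 2.38e-05 by limma). With the inhibitor it fell by 2.95 ± 0.23 from the injured level (adjusted p = 0.000152), to 102% of the sham mean. The difference between inhibitor-treated and sham arteries was 0.02 ± 0.18 (adjusted p = 0.955) on the log2 scale and did not pass the test. The library with the hepatocyte markers, inhibitor-treated replicate 3, lay between its 2 fellow libraries for Igf1, and the part of liver RNA in these levels was not tested. An antisense gene, Igf1os, overlaps the start of Igf1, and whether the counting used strand is not given in the sources used here, so reads of the overlap cannot be assigned. Igf1os was counted at 4.01 to 11.7 in sham, 59.3 to 223 in injured and 5.70 to 18.3 in inhibitor-treated libraries, far below Igf1 in each.

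Igf1r, the receptor kinase (ENSMUSG00000005533, chromosome 7, 67952827 to 68233668, plus strand), moved the other way and over a smaller range. It was at 2632, 3183 and 2473 in sham, at 2423, 1861 and 1726 in injured, and at 2862, 2988 and 3094 in inhibitor-treated libraries. The injured libraries were the lowest 3, but the highest of them lay just under the lowest sham library. Igf1r fell by 0.48 ± 0.16 with injury (adjusted p = 0.0445), and this call was lost in 8 of 18 alternative analyses, in which the adjusted p ran from 0.0113 to 0.166. It rose by 0.59 ± 0.14 with the inhibitor (adjusted p = 0.0132), a call lost in 1 alternative, which left out injured replicate 2 and inhibitor-treated replicate 3. Inhibitor-treated and sham libraries overlapped, with means of 2981 ± 116 and 2763 ± 373.

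Igfbp2 (ENSMUSG00000039323, chromosome 1, 72824503 to 72852474, plus strand) encodes a binding protein that also carries an integrin-binding motif. It was at 409, 465 and 287 in sham, at 2923, 3293 and 2204 in injured, and at 394, 485 and 454 in inhibitor-treated libraries. The injured libraries were the highest 3, with no overlap. Its level rose 7.25 times with injury, by 2.86 ± 0.21 (adjusted p = 3.79e-05), and fell by 2.64 ± 0.16 with the inhibitor (adjusted p = 7.23e-05).

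Igfbp3 (ENSMUSG00000020427, chromosome 11, 7206086 to 7213923, minus strand) encodes the main carrier of IGFs in plasma, where it binds them together with the acid-labile subunit. It was at 303, 203 and 306 in sham, at 2582, 1556 and 1854 in injured, and at 320, 397 and 223 in inhibitor-treated libraries. As for Igfbp2, the injured libraries stood alone and the other groups overlapped. Igfbp3 rose 7.38 times with injury, by 2.86 ± 0.22 (adjusted p = 4.97e-05), and fell by 2.67 ± 0.26 with the inhibitor (adjusted p = 0.000326). The inhibitor-treated means were 115% of sham for Igfbp2 and 116% for Igfbp3, differences within the spread of the libraries. The calls of Igf1, Igfbp2 and Igfbp3 in the comparisons with the injured arteries held in all 18 alternatives.

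**Figure D1:**
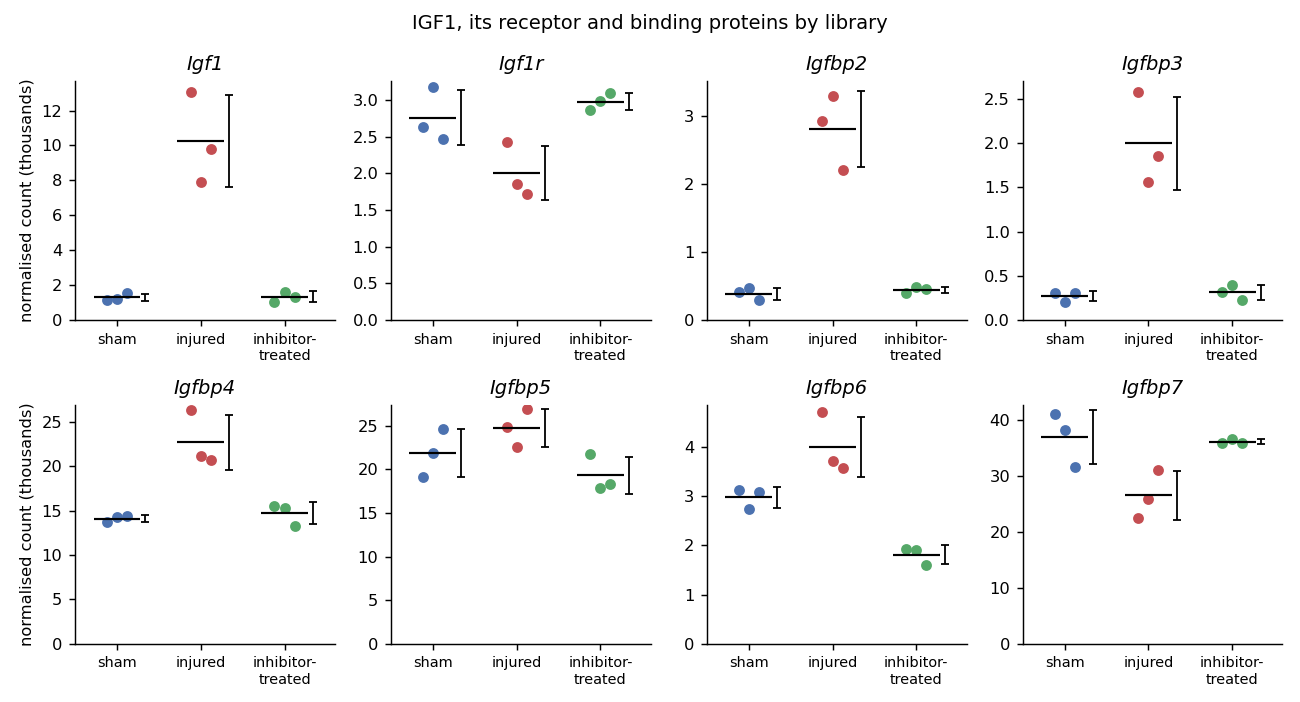
Normalised read counts (in units of 1000, linear axes from 0) of the 8 genes in each library; points are libraries, the line is the group mean and the bar beside it ± 1 SD (n = 3). Igf1, Igfbp2 and Igfbp3 are high in the 3 injured libraries alone, Igfbp4 rises less, and Igfbp6 is lowest in the inhibitor-treated libraries.

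Igfbp4 (ENSMUSG00000017493, chromosome 11, 99041244 to 99054392, plus strand) encodes a binding protein that restrains IGF action until the protease PAPP-A cuts it. It was at 13705, 14268 and 14373 in sham, at 26302, 21160 and 20695 in injured, and at 15546, 15333 and 13302 in inhibitor-treated libraries. All injured libraries were above all others, by less than for Igfbp2 and Igfbp3. Igfbp4 rose 1.61 times with injury, by 0.67 ± 0.15 (adjusted p = 0.00920), and fell by 0.62 ± 0.14 with the inhibitor (adjusted p = 0.0115). Both calls were lost when libraries were scaled on ribosomal protein genes. The fall was also lost without inhibitor-treated replicate 3, whose level was the lowest of its group, with a log2 fold change of -0.54 or -0.60 once injured replicate 2 was left out as well.

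Igfbp5 (ENSMUSG00000026185, chromosome 1, 72857932 to 72874884, minus strand), a binding protein that attaches to matrix and is made by smooth muscle cells, showed no such pattern. It was at 19156, 21901 and 24661 in sham, at 24813, 22596 and 26901 in injured, and at 21781, 17842 and 18297 in inhibitor-treated libraries. Sham and injured libraries overlapped, with a difference of 0.17 ± 0.17 (adjusted p = 0.446). The inhibitor-treated libraries were all below the injured ones, with a difference of -0.36 ± 0.13 that missed the threshold (adjusted p = 0.0712) and passed it in 3 of 18 alternatives, 1 of them the authors' deposited table (range of adjusted p 0.0201 to 0.894). Both differences changed sign when libraries were scaled on ribosomal protein genes. With the neighbouring Igfbp2, the ratio of levels per kilobase of exon, Igfbp2 over Igfbp5, was 0.0588 ± 0.0181 in sham, 0.374 ± 0.104 in injured and 0.0760 ± 0.0154 in inhibitor-treated arteries (SD, n = 3).

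Igfbp6 (ENSMUSG00000023046, chromosome 15, 102144362 to 102149511, plus strand) encodes the binding protein that prefers IGF2 over IGF1. It was at 3131, 2736 and 3075 in sham, at 4702, 3709 and 3581 in injured, and at 1935, 1904 and 1595 in inhibitor-treated libraries. The 3 groups were fully separate, in the order inhibitor-treated, sham, injured. Igfbp6 rose by 0.41 ± 0.14 with injury (adjusted p = 0.0440), a call lost in 8 of 18 alternatives (adjusted p 0.00800 to 0.533). It fell by 1.13 ± 0.14 from injured to inhibitor-treated arteries (adjusted p = 0.000834). Its level in inhibitor-treated arteries was 60.8% of the sham mean, and it fell by 0.71 ± 0.10 against sham (adjusted p = 0.00415), a call that held in all 18 alternatives.

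Igfbp7 (ENSMUSG00000036256, chromosome 5, 77349240 to 77408041, minus strand), also called angiomodulin, encodes a matrix protein of vessels. It was at 40943, 38081 and 31537 in sham, at 22497, 25844 and 31033 in injured, and at 35804, 36561 and 35748 in inhibitor-treated libraries. The injured libraries were the lowest 3, although the highest of them and the lowest sham library nearly met. With injury the difference of -0.49 ± 0.20 did not pass the test (adjusted p = 0.0847), and it passed in 4 of 18 alternatives, 1 of them the authors' deposited table (range 0.0131 to 0.495). With the inhibitor Igfbp7 rose by 0.46 ± 0.15 (adjusted p = 0.0453), a call lost in 9 of 18 alternatives (range 0.00592 to 0.650). The end of Polr2b, at 852 to 1753 normalised counts, overlaps that of Igfbp7 on the other strand.

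Counted together, 6 of the 8 genes were called between injured and sham arteries, where 37.3% of the 16278 genes tested were called. Of these 5 were higher and 1 lower, against 20.6% and 16.8% of all genes. The median log2 fold change of the 8 was 0.54, against -0.003 over all genes tested. The groups did not overlap for 7 of the 8, and for 51.3% of all genes. Between inhibitor-treated and injured arteries, 7 of 8 were called, against 36.1% of 16901 genes. Of these 2 were higher and 5 lower, against 17.6% and 18.5%, with a median of -0.88 against 0.006. Here no gene of the 8 overlapped, against 51.6% of all genes without overlap. Between inhibitor-treated and sham arteries 1 of 8 was called, against 6.08% of 16166 genes (5.15% higher and 0.934% lower), and it was lower. The median of the 8 was 0.05 against -0.007, and 1 of 8 did not overlap, against 27.9% of all genes. These 3 comparisons share libraries, so a gene high in the injured group enters the first and the second with opposite signs by construction. In bulk RNA, fewer cells of a type and less RNA per cell cannot be told apart.

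**Figure D2:**
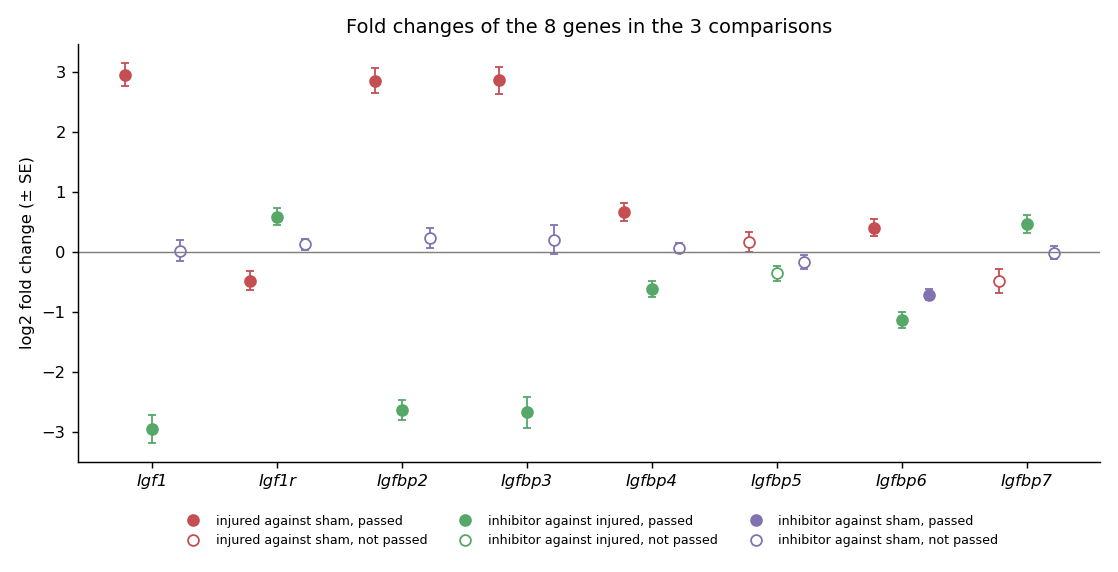
Log2 fold change of each gene in the 3 comparisons, with its SE from limma; filled points passed the test at an adjusted p under 0.05 and open points did not. Igf1, Igfbp2 and Igfbp3 lie near 3 for injury and between -2.64 and -2.95 for the inhibitor against injury, and Igfbp6 is the sole filled point of the inhibitor against sham.

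To compare the genes with each other, levels were divided by exon length. Per kilobase, Igfbp7 led the binding proteins in every library, with 75.4 ± 3.5% of their summed level in sham, 59.1 ± 6.0% in injured and 77.8 ± 1.4% in inhibitor-treated arteries (SD, n = 3). Igfbp4 held 7.98 ± 0.89%, 14.0 ± 2.6% and 8.69 ± 0.55%, and Igfbp5 held 9.16 ± 1.96%, 11.2 ± 0.56% and 8.38 ± 0.87% in the same order. Igfbp6 held 6.69 ± 0.82%, 9.81 ± 1.98% and 4.24 ± 0.35%. The least abundant pair grew most as a fold, though not in points of share: Igfbp2 went from 0.517 ± 0.093% to 4.16 ± 1.05% and back to 0.628 ± 0.069%, and Igfbp3 from 0.216 ± 0.056% to 1.74 ± 0.52% and 0.260 ± 0.068%. The summed level per kilobase was 40303 ± 3492 in sham, 36906 ± 2543 in injured and 38327 ± 822 in inhibitor-treated arteries, within the spread of the libraries.

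**Figure D3:**
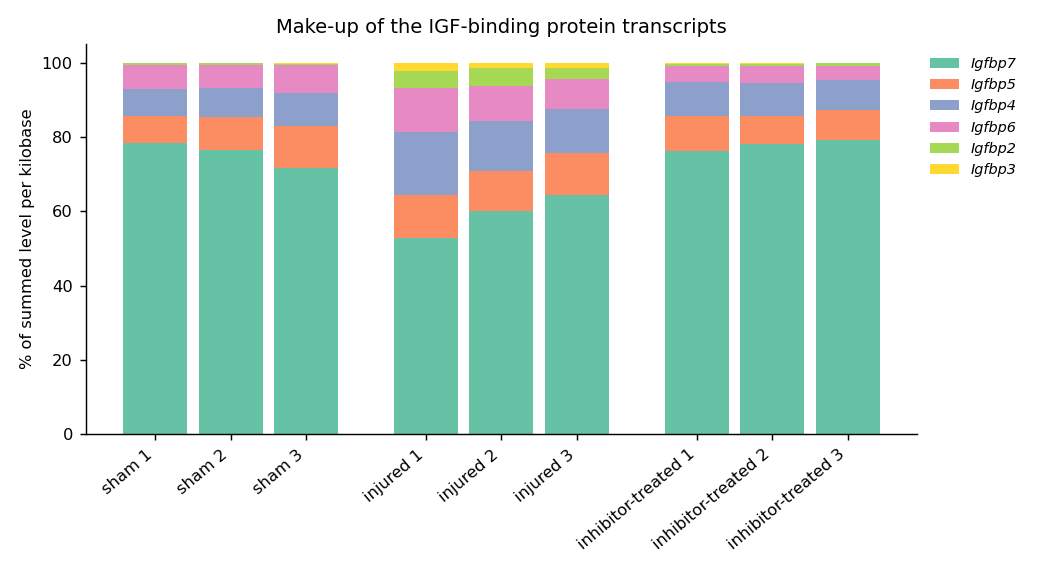
Share (%) of each binding protein gene in the summed level per kilobase of exon of the 6 Igfbp genes, with 1 stacked bar per library. Igfbp7 fills most of every bar, and the Igfbp2, Igfbp3, Igfbp4 and Igfbp6 segments are wider in the injured libraries than in the sham libraries.

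In mean level, ligand and receptor transcripts changed places in order. Per kilobase, Igf1 was at 131 ± 20 in sham against 165 ± 22 for Igf1r, and the ratio of Igf1 to Igf1r was 0.810 ± 0.208 (SD, n = 3), with sham replicate 3 at 1.04. In injured arteries Igf1 was at 1036 ± 265 and Igf1r at 119 ± 22, a ratio of 8.66 ± 1.30. In inhibitor-treated arteries the ratio was 0.750 ± 0.166, which overlapped with sham. Set against the summed binding proteins, Igf1 made up 0.329 ± 0.081% in sham, 2.82 ± 0.80% in injured and 0.348 ± 0.082% in inhibitor-treated arteries, all per kilobase of transcript. These are ratios of RNA, and no protein was measured.

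The genes most like each of the 8 were found as those with the smallest root mean square difference of centred log2 levels over the 9 libraries, among 11636 genes. For Igf1 they were Itm2a (difference 0.119), Fcrls (0.168) and Mrc1 (0.175), and Mrc1, the macrophage mannose receptor, was at 357 ± 46 in sham, 2541 ± 191 in injured and 320 ± 63 in inhibitor-treated arteries. For Igfbp2 they were Fcgr3 (0.219), an Fc receptor of myeloid cells, Unc93b1 (0.234), which carries Toll-like receptors, and Ddx60 (0.255). For Igfbp3 they were Fscn1 (0.181), an actin-bundling protein, Bmper (0.221), a secreted regulator of BMPs, and Dclk1 (0.223). Igf1r was closest to Dlgap4 (0.087), Cnn2 (0.090) and Zfhx3 (0.101), and Igfbp6 to Gas1 (0.161), Nnmt (0.166) and Nbl1 (0.169). Igfbp4 was closest to Rsrc1 (0.054), Lig1 (0.068) and Nfkbiz (0.077), Igfbp5 to Prss36 (0.084), Flad1 (0.086) and Pik3r1 (0.090), and Igfbp7 to Ahsa2 (0.059), Zfp420 (0.064) and Tax1bp3 (0.067). Among the 8 themselves, Igf1 was nearer to Igfbp3 (0.289) and Igfbp2 (0.394) than to its receptor gene (1.66). Genes that differ little between groups are close to many others on this measure, so small values do not rank the likeness of one gene against another's.

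Markers of other cells are given beside these genes, and their lists did not all move alike. Of all genes, 20.6% were called higher and 16.8% lower with injury, and 17.6% and 18.5% with the inhibitor against injury. Of the macrophage markers 11 of 12 rose and 1 fell with injury, and 11 fell and 1 rose with the inhibitor. Their summed level was 7267 to 8425 in sham, 37783 to 56720 in injured and 8723 to 13460 in inhibitor-treated libraries, highest in the injured group like Igf1 but also slightly higher under the inhibitor than in sham. Of the fibroblast markers 6 of 10 rose and 1 fell with injury, and 8 fell and 1 rose with the inhibitor. Their sum was 132290 to 152790, 307440 to 509890 and 118410 to 132870, and the inhibitor-treated range overlapped the sham range only at its upper end. Against sham, 3 of the 10 were called lower under the inhibitor and 0 higher, where 0.934% and 5.15% of all genes were. At an unadjusted p under 0.05 by limma, 5 were lower and 0 higher. Of the endothelial markers 8 of 10 rose with injury and 8 fell with the inhibitor, with sums of 24516 to 37782, 37112 to 50150 and 31127 to 32352. Of the adipocyte markers 2 of 8 rose and 1 fell with injury, counts near those shares of all genes. With the inhibitor 7 of them fell and 1 rose. Their sum was 31080 to 72810 in sham, with the highest value in replicate 3, 56326 to 88299 in injured and 27639 to 35920 in inhibitor-treated libraries. The 8 contractile markers went in the same direction as Igf1r, with 8 lower after injury and 8 higher with the inhibitor. Their median log2 fold changes of -1.93 and 1.93 were larger than those of Igf1r, -0.48 and 0.59. The part of these cells in the levels of the 8 genes was not tested. Neutrophil markers did not follow Igf1: their sum was 30.5 to 44.6 in sham, 1056 to 4856 in injured and 2362 to 2640 in inhibitor-treated libraries. The lymphocyte sum also stayed above sham under the inhibitor, at 137 to 211, 2238 to 5941 and 638 to 2325 in the same order. The Schwann sum was lowest in injured libraries, at 8052.7 to 8610.1, 4154.5 to 5754.1 and 7488.4 to 9022.5, although 6 of 8 Schwann markers rose with injury and 1 fell.

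Other genes of the IGF family changed less than Igf1, and 7 of 12 listed genes were measured. Igf2, the sister ligand, was at 951 ± 142 in sham, 1016 ± 161 in injured and 916 ± 37 in inhibitor-treated arteries, and passed no test (adjusted p = 0.700, 0.443 and 0.894). Per kilobase, Igf1 over Igf2 was 0.787 ± 0.046 in sham, 5.86 ± 1.21 in injured and 0.831 ± 0.174 in inhibitor-treated arteries (SD, n = 3). Igf2r, the receptor that clears IGF2, rose by 0.50 ± 0.14 with injury (adjusted p = 0.0237) and differed by -0.26 ± 0.14 with the inhibitor (adjusted p = 0.174). Insr, the insulin receptor, which can pair with IGF1R, was at 2695, 2838 and 2534 in sham and at 1703, 1714 and 1655 in injured libraries. Like Igf1r it fell with injury, by 0.68 ± 0.10 (adjusted p = 0.00101), and rose with the inhibitor, by 0.64 ± 0.12 (adjusted p = 0.00506).

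Igfals, the gene of the acid-labile subunit that joins IGFBP3 in plasma, rose by 1.16 ± 0.32 with injury at a low level, from 31.4 ± 9.1 to 71.0 ± 16.7 (adjusted p = 0.02). Igf2bp2, an RNA-binding protein named for Igf2 messenger RNA, rose by 0.89 ± 0.22 with injury and fell by 0.94 ± 0.20 with the inhibitor (adjusted p = 0.0135 and 0.00993). Insrr and Igf2bp3 were low, at 5.70 to 25.6 and 11.9 to 30.0 normalised counts, and passed no test. Over the list, 3 of 7 tested genes rose and 1 fell with injury, against 20.6% and 16.8% of all genes. With the inhibitor against injury 1 rose and 1 fell, against 17.6% and 18.5%. The rise of Igf2r lost its call without sham replicate 2 or 3, that of Igfals without sham replicate 1 and that of Igf2bp2 without sham replicate 2. By limma none of 6 was called between inhibitor-treated and sham arteries, against 6.08% of all genes. Of the 6, 1 had an unadjusted p under 0.05, and 0 were called by edgeR or DESeq2. Ins1, Ins2, Igfbp1, Igfbpl1 and Igf2bp1 were not analysed here.

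The proteases that cut binding proteins, and their inhibitors, moved in both directions. With injury 3 of 9 rose and 5 fell, against 20.6% and 16.8% of all genes, with a median of -0.48 against -0.003. With the inhibitor against injury 3 of 10 rose and 3 fell, against 17.6% and 18.5%, with a median of 0.24 against 0.006. Pappa, the protease PAPP-A that cuts IGFBP4, was low, at 55.1, 23.4 and 39.2 in sham, 103, 91.0 and 123 in injured, and 36.1, 37.6 and 35.4 in inhibitor-treated libraries. It rose by 1.47 ± 0.33 (adjusted p = 0.00820) and fell by 1.5 ± 0.21 (adjusted p = 0.00145). Adam12, a metalloprotease that cuts IGFBP3 and IGFBP5, was at 55.1, 41.0 and 128 in sham, 808, 496 and 928 in injured, and 40.8, 98.2 and 90.9 in inhibitor-treated libraries. Its rise of 3.41 ± 0.41 and fall of 3.31 ± 0.38 were the largest called changes of the list (adjusted p = 0.000358 and 0.000668). Stanniocalcins inhibit PAPP-A, and here they differed in direction. Stc1 rose by 1.07 ± 0.19 with injury and fell by 1.09 ± 0.18 with the inhibitor, while Stc2 fell by 0.93 ± 0.19 with injury and differed by 0.46 ± 0.20 with the inhibitor (adjusted p = 0.120).

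Other enzymes of the list went down with injury. Htra1, a serine protease that can cut IGFBP5, fell by 0.55 ± 0.14 and rose by 0.41 ± 0.12 with the inhibitor. Its fall lost its call without sham replicate 1 or 2 or injured replicate 2, and its rise when any library but injured replicate 3 was left out. Adamts1, a matrix protease, fell by 1.18 ± 0.17 with injury and rose by 1.08 ± 0.19 with the inhibitor. Serpine2, an inhibitor of serine proteases, fell by 1.14 ± 0.17 with injury and rose by 1.04 ± 0.15 with the inhibitor. Htra3, a relative of Htra1, was at 4252 ± 262 in sham, 3063 ± 318 in injured and 2935 ± 242 in inhibitor-treated arteries. It fell by 0.48 ± 0.12 with injury and differed by -0.06 ± 0.11 between inhibitor-treated and injured arteries (adjusted p = 0.713), and the fall lost its call without sham replicate 1. It was the only one of 10 genes of this list called against sham, by -0.53 ± 0.08 (adjusted p = 0.00834), where 6.08% of all genes were called. Pappa2 passed no test. Plg, the gene of the liver protein plasminogen, was at 496 in inhibitor-treated replicate 3, the library with the hepatocyte markers, and at 0 to 3.67 elsewhere. Ctsg and Klk1 were not analysed here.

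**Figure D4:**
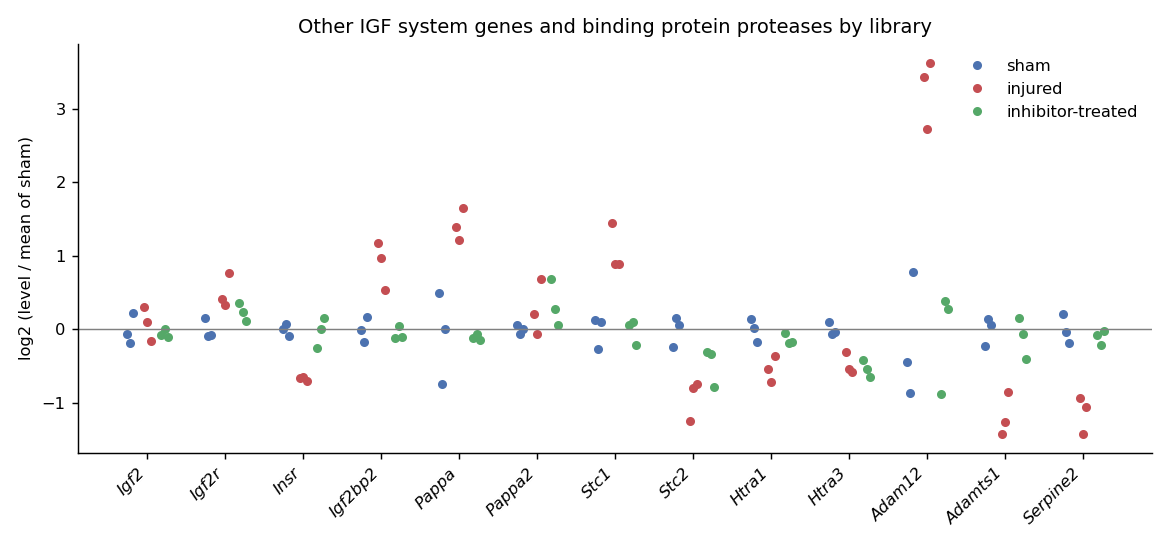
Log2 of the level in each library over the sham mean (0 on the axis) for 4 family genes and 9 genes of proteases and their inhibitors; points are libraries, coloured by group. Adam12, Pappa, Stc1 and Igf2bp2 lie above 0 in the injured libraries and Insr, Adamts1 and Serpine2 below, while Htra3 lies below 0 in both the injured and the inhibitor-treated libraries.

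Downstream of the receptor, 44 genes of the PI3K-AKT and RAS-ERK pathways were listed and 43 tested. With injury 5 rose and 14 fell, against 20.6% and 16.8% of all genes, with a median of -0.16 against -0.003. Those with the largest changes were 3 genes typical of blood cells, Inpp5d (the lipid phosphatase SHIP1), Pik3cd and Pik3cg (catalytic PI3K subunits), which rose by 2.63 ± 0.18, 2.51 ± 0.21 and 2.42 ± 0.26, and Grb14, an adaptor that blocks the insulin receptor, which fell by 1.40 ± 0.16. With the inhibitor against injury 16 rose and 8 fell, against 17.6% and 18.5% of all genes, with a median of 0.09 against 0.006. The same 4 genes led, with falls of 1.75 ± 0.32, 1.58 ± 0.26 and 1.49 ± 0.47 and a rise of 1.41 ± 0.14. The call of Pik3cg was lost when any single library but inhibitor-treated replicate 3 was left out, with values from -2.01 to -0.98 over all 6 omissions, the smallest without inhibitor-treated replicate 1. Between inhibitor-treated and sham arteries limma called none of the 43, against 6.08% of the 16166 genes tested. Of the 43, edgeR called 1 and DESeq2 called 4, against 899 and 1434 of all genes. By limma 14 of the 43 had an unadjusted p under 0.05, and the share of all genes at that level was not counted.

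Growth hormone signalling, which drives Igf1 in liver, was represented by 9 genes. With injury 4 rose, against 20.6% of all genes, and none fell by limma (0 lower at an unadjusted p under 0.05, and 0 by edgeR or DESeq2): Socs1 by 1.64 ± 0.34, Socs3 by 1.60 ± 0.14, Prlr by 1.59 ± 0.25 and Cish by 0.94 ± 0.25. SOCS proteins and Cish are feedback inhibitors of JAK-STAT signalling, and Prlr is the prolactin receptor. With the inhibitor against injury 6 of 9 fell, against 18.5% of all genes, among them Socs1, Socs3 and Cish, by 1.47 ± 0.37, 1.33 ± 0.16 and 0.73 ± 0.19. The fall of Socs1 lost its call without injured replicate 1 or 2 or inhibitor-treated replicate 1 or 3 (values -1.85 to -1.17), and that of Cish without injured replicate 2 or inhibitor-treated replicate 1 or 2. The rise of Cish with injury lost its call without sham replicate 1 or 2 or injured replicate 2. Ghr, the growth hormone receptor, was at 2814, 2611 and 2772 in sham, 3101, 2958 and 4229 in injured and 2087, 2028 and 2015 in inhibitor-treated libraries. It fell by 0.73 ± 0.14 against injured (adjusted p = 0.00722) and by 0.41 ± 0.06 against sham (adjusted p = 0.00804), so its order over the groups was that of Igfbp6. Prlr remained above sham under the inhibitor, by 0.95 ± 0.21 (adjusted p = 0.0388), a call that held only when sham replicate 2 was the library left out.

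Of 14 genes that FoxO factors are known to induce when AKT is quiet, 3 rose and 4 fell with injury, and 5 rose and 2 fell with the inhibitor against injury, 7 of 14 called each time against 37.3% and 36.1% of all genes. Klf15, a metabolic transcription factor, was at 1329, 1456 and 1650 in sham, 377, 363 and 501 in injured and 1354, 1499 and 1075 in inhibitor-treated libraries. Fbxo32, the ubiquitin ligase atrogin-1, followed it, with a fall of 1.46 ± 0.13 and a rise of 1.5 ± 0.10. Trim63, a ubiquitin ligase of striated muscle, rose by 3.67 ± 0.85 with injury, the group that holds the library with the skeletal muscle markers. Gadd45a, a stress gene, rose by 1.59 ± 0.27 with injury and stood 2.39 ± 0.20 above sham in inhibitor-treated arteries.

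Matrix and cell surface partners of IGFs and their binding proteins were the last list, with 13 genes. With injury 4 rose and 4 fell, against 20.6% and 16.8% of all genes, and with the inhibitor against injury 4 rose and 3 fell, against 17.6% and 18.5%. Vtn, the gene of vitronectin, which binds IGF2 and IGFBP complexes, rose by 2.05 ± 0.16 with injury. In inhibitor-treated libraries it was at 85.4, 111 and 581, where the high value belongs to the library with the hepatocyte markers. Spp1 (osteopontin) and Thbs1 (thrombospondin 1), ligands of the integrin alpha v beta 3 that cooperates with IGF1R in smooth muscle cells, rose by 5.81 ± 0.28 and 2.59 ± 0.27. Spp1 was uneven under the inhibitor, at 67.4, 1948 and 158. Thbs1 was at 2641, 2670 and 1317 in sham and at 6898, 7991 and 6406 in inhibitor-treated libraries, 1.76 ± 0.25 above sham (adjusted p = 0.00543). The integrin gene Itgb3 itself was at 2759, 2616 and 2139 in sham, 1439, 1240 and 1419 in injured, and 3358, 3198 and 3737 in inhibitor-treated libraries. It rose by 1.33 ± 0.10 with the inhibitor and stood 0.47 ± 0.11 above sham (adjusted p = 0.0390), a call lost when any single library was left out. Itga5, of the fibronectin receptor, rose by 1.08 ± 0.14 with the inhibitor. Ptprz1, the gene of a receptor phosphatase, fell by 3.69 ± 0.21 with injury and rose by 3.78 ± 0.15 with the inhibitor. Serpinf1, the gene of PEDF, was below sham under the inhibitor by -0.41 ± 0.06 (adjusted p = 0.00880).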

How the data were processed

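RNA-seq of 9 libraries (3 sham, 3 injured, 3 inhibitor-treated) was deposited as 3 tables, each comparing 2 groups in 6 libraries. A table lists for every gene, per the file headers, its normalised value in each library, the log2 fold change between the groups, and its raw and adjusted p-value. From the values themselves, the deposited signal is the read count of a gene divided by a factor for that library, which differs from table to table: dividing by the value of 1 read gave whole reads for 100% of values within 0.01 read, and none of the 143802 values shared by 2 tables differed. The authors' log2 fold changes and p-values were used only where named as theirs. Per the submitters' processing notes, the build was mm10 (GRCm38). Aligner, counting program and use of strand: not given in the sources used here.

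Tests were run within the table of each comparison. They used limma 3.58.1 (R 4.3.3) with its two-sided moderated test and a variance trend. The model held the group alone, the values were log2(normalised count + 1), and genes with a mean under 10 were left out. Benjamini-Hochberg adjustment of the p-values ran over all genes tested, with a threshold of 0.05. The log2(value + 1) scale understates the change of low genes. Because the values are normalised, limma was chosen; edgeR 4.0.16 and DESeq2 1.42.0 on the recovered reads were alternatives. Levels across groups were rescaled from the reads by 1 median-of-ratios factor per library over 16750 genes present in at least 2 tables. Levels per kilobase use the exon length of GENCODE vM21, and coordinates are from the same annotation. Gene names that had turned into dates (21 in every table) were restored through the gene identifier. The procedure was tested on simulated data for injured against sham alone. These held far fewer changed genes than were called here and no library that stood apart, so the test does not cover such libraries.

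The genes named are the 8 members, the listed family and protease genes, up to 4 called genes of each other pathway list per comparison with the largest fold change, and the 3 genes most like each member among genes with a mean of at least 100. The members and all lists were chosen with earlier results of these data known. A gene of the protease list is not reported here and was left out of its counts.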

Additional observations from a re-analysis of the deposited data

How the results depend on the processing

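Each comparison was repeated under 18 alternatives: 2 other pseudocounts, 2 other filters, edgeR, DESeq2, the authors' deposited p-values, quantile normalisation, scaling on ribosomal protein genes, 1 fit of all 9 libraries, a replicate block, leaving out each of the 6 libraries, and leaving out the libraries that stand apart (sham replicate 3, injured replicate 2 and inhibitor-treated replicate 3). Inhibitor-treated replicate 2, which was also uneven in skeletal muscle markers (35673), was kept in that last alternative. Igf1, Igfbp2 and Igfbp3 kept direction and call in all 18 for both comparisons with the injured group. Igfbp6 did so in all 18 for both comparisons with the inhibitor-treated group. Of the 8 genes, 4 to 7 were called with injury, 4 to 8 with the inhibitor against injury and 1 against sham. Without the libraries that stand apart, the genes called with the inhibitor against injury fell to 3295 from 6099 and the members to 4 from 7; fewer samples entered that fit. Against sham, 983 genes were called, 551 with a mean of at least 100 (fewer genes tested) and 518 to 854 when a single library was left out, but 1434 by DESeq2, 1442 by the authors' deposited p-values and 1306 under ribosomal scaling. Leaving out sham replicate 1 or 2 or inhibitor-treated replicate 1 or 2 gave 518, 596, 598 and 533.

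Scaling on ribosomal protein genes moved the median log2 fold change of all genes to -0.26, 0.41 and 0.11 in the 3 comparisons. The share of calls that were higher went from 55.1% to 45.2% (45.9% with quantile normalisation) with injury, from 48.8% to 72.6% with the inhibitor against injury, and from 84.6% to 97.2% (73.7% with quantile normalisation) against sham. Under ribosomal scaling these uncalled differences changed sign: with injury Igfbp5 -0.083, Igf2 -0.17 and Insrr -0.16; with the inhibitor against injury Igfbp5 0.041, Igf2 0.26 and Igf2r 0.14; against sham Igfbp7 0.11, Igf2 0.084, Insr 0.098 and Igf2bp2 0.076. Quantile normalisation turned Insrr with injury to -0.67, and against sham Igfals to -0.058 and Igf2bp3 to -0.44. The fit of all 9 libraries put Igf2bp3 against sham at -0.002. Without the libraries that stand apart, Igf2bp3 turned to 0.16 with injury, -0.46 with the inhibitor against injury and -0.28 against sham, Igf2 to 0.11 and Igf2bp2 to 0.07 against sham. The cause of these turns was not tested. Leaving out single libraries moved uncalled values across 0: with injury Igf2 -0.026 to 0.21, Insrr -0.41 to 0.55 and Igf2bp3 -0.27 to 0.21; with the inhibitor against injury Igf2bp3 -0.22 to 0.50; against sham Igf1 -0.14 to 0.21, Igfbp7 -0.12 to 0.068, Igf2 -0.13 to 0.089, Insr -0.12 to 0.093, Igfals -0.093 to 0.71, Igf2bp2 -0.13 to 0.051 and Igf2bp3 -0.23 to 0.40.

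Whether the replicate numbers pair the libraries is not said in the labels. Same-numbered libraries correlated between -0.076 and 0.192 in their deviations from the group means, which cannot settle it with 3 libraries per group. With the replicate block, 5762, 5747 and 877 genes were called in the 3 comparisons, and 6, 6 and 1 of the members; Igfbp7 with the inhibitor against injury lost its call. The 3 libraries per group limit the precision of every fold change.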

Other observations

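Of the 6 binding protein genes, 5 lie on chromosomes that also hold a tensin gene, and tensins link integrins to actin in focal adhesions, where FAK acts. The tensin genes were picked after their values were seen, so their levels are given with no test. Of all genes, 20.6% were called higher and 16.8% lower with injury, and a link between position and level was not tested. Tns1, 1035 kb from Igfbp5, was at 56782 ± 2857 in sham, 17191 ± 1674 in injured and 55809 ± 1410 in inhibitor-treated arteries (SD, n = 3). Tns2, 28 kb from Igfbp6 on chromosome 15, was at 9432 ± 592, 4580 ± 314 and 8524 ± 183. The tensins of chromosome 11 went the other way. Tns3, 1218 kb from Igfbp3, was at 1010 ± 49, 1749 ± 217 and 1066 ± 49, and Tns4, 11.3 kb from Igfbp4, at 36.9 ± 6.7, 57.8 ± 8.3 and 34.2 ± 4.2. Each chromosome 11 tensin was thus highest in injured arteries, as were Igfbp3 and Igfbp4, though Tns4 had only 27 to 71 reads per library. Tns1 and Tns2 were lowest there, unlike the binding protein genes of their chromosomes. Igfbp2, Igfbp5 and Igfbp6 had their highest means in injured arteries, at 2807, 24770 and 3997, against 387, 21906 and 2981 in sham. For Igfbp5 the injured and sham libraries overlapped and the difference was not called (adjusted p = 0.446 by limma). The rise of Igfbp6 lost its call in 8 of 18 alternatives.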
